A study of Sus scrofa with 16 samples.

Results

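The GATA family of transcription factors was examined at its 6 members, GATA1 to GATA6, in the accessible chromatin of pig tissues. The members are 6 of 19560 protein-coding genes (PCGs) of the RefSeq annotation of Sscrofa11.1. A peak was assigned to a member when it overlapped a promoter (2.2 kb upstream to 500 bp downstream of a transcription start site, TSS) or the gene body with 10 kb on either side. In all, 238 of 798988 peaks were assigned in this way.

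Chromatin accessibility had been profiled by ATAC-seq, in which a transposase cuts open DNA and adds sequencing adaptors, in 16 libraries from female crossbred domestic pigs (Berkshire × Tibetan hybrids in the study's methods). Newborn pigs, labelled day 0, gave heart, kidney, lung, skeletal muscle (longissimus dorsi), spleen and liver. Suckling pigs of 28 days and adult pigs of 180 days gave liver only, and each of the 8 groups had 2 replicates. The methods describe 2 full sibs per age, with all newborn tissues from the same pair of animals, so tissues are not independent of each other. No treatment or engineered allele is given for any group. The replicates of a group were merged by the authors into 1 list of consensus peaks, so a count of peaks has no replicate error, and with bulk tissue a smaller share of cells of a type cannot be told apart from less open chromatin in each cell.

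GATA factors bind short DNA sequences built around the letters GATA through a pair of zinc fingers. GATA1, GATA2 and GATA3 are best known from blood: GATA1 drives the maturation of red cells and megakaryocytes, GATA2 maintains blood stem cells and progenitors and acts in endothelium, and GATA3 directs T cell development and the growth of the nephric duct. GATA4, GATA5 and GATA6 act in heart, gut, lung and liver, where they work with partners such as NKX2-5, TBX5 and the cofactor ZFPM2. In blood, GATA1 and GATA2 bind with TAL1 at composite elements in which an E-box (CANNTG) precedes a GATA sequence by a few bases.

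The lists ranged from 57126 peaks in muscle to 141689 in suckling liver. The share of peaks with an irreproducible discovery rate (IDR, which is low where both replicates rank a peak alike) of 0.05 or lower ranged from 19.2% in newborn liver to 50.4% in adult liver. The replicates of a group often differed in strength: the median −log10 p of the lung peaks was 6.15 in replicate 1 and 22.5 in replicate 2. Tissue labels were checked against marker genes written down for each tissue. Promoter peaks were found at 9 of 9 annotated heart markers in heart, 6 of 9 kidney markers in kidney, 9 of 10 lung markers in lung, 10 of 10 muscle markers in muscle and 10 of 10 spleen markers in spleen, and at 9, 10 and 10 of 10 liver markers in newborn, suckling and adult liver. In lists of other tissues the counts were 2 to 5 for heart markers, 0 to 2 for kidney markers and 2 to 4 for lung markers. They were 4 to 7 for muscle, 0 to 7 for spleen and 1 to 2 for liver markers, so the muscle and spleen markers were less specific. Among all PCGs 75.2% had a promoter peak in kidney, so the kidney marker count did not exceed the background. No kidney peak was listed at the promoters of UMOD and SLC22A6. The lists give no read counts, and the read totals that the study states for each library were not used here. A missing peak is a peak that was not called.

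Overlapping peaks of all lists were joined into 76 regions, numbered along each gene from its 5′ side. The sequences below, from RefSeq Sscrofa11.1, are shown because they carry the 3 composite elements found in these regions or lie in the regions on which the comparisons between tissues turn. They are written 5′ to 3′ on the strand named. Capitals mark GATA sequences and, in the composites, the E-box as well. The GATA sequences searched, on either strand, were the word AGATAA and the word TGATAA, and both of these words with a final G in place of the final A. No printed window overlapped an annotated exon. The composite searched was CANNTG, then 7 to 9 bases, then AGATAA, on both strands.
GATA1 region 2, chrX:42894444-42894544, minus strand: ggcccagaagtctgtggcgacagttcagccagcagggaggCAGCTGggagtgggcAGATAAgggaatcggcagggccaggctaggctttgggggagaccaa
GATA2 region 6, chr13:71993798-71993898, plus strand: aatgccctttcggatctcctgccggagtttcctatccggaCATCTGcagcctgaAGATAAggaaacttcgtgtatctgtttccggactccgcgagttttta
GATA6 region 10, chr6:107289671-107289771, plus strand: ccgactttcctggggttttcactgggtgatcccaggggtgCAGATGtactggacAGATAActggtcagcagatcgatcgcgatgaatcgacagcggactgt
The composites in GATA2 region 6 and GATA6 region 10 have 8 bases between E-box and GATA sequence, and that of GATA1 region 2 has 9. A composite was found in 3 of 76 regions of the family and in 0.565% of 288665 regions of the whole series.

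The next windows lie at promoters. The GATA1 window is centred on the summit in spleen and holds a pair of facing GATA sequences 3 bases apart. The GATA2 window is the stretch of region 1 with the most GATA sequences outside exons.
GATA1 region 4, chrX:42897765-42897925, plus strand: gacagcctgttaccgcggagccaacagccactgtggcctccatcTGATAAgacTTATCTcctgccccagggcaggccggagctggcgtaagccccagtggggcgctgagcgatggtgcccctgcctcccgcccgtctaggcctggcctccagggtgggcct
GATA2 region 1, chr13:71980130-71980290, plus strand: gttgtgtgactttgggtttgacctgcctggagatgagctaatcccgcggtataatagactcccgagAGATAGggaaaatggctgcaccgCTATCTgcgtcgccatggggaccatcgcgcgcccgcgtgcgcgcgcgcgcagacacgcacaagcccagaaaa
The windows from the GATA3 and GATA5 promoters are centred on the summits in kidney and heart. They hold none of the GATA sequences searched, so they have no capitals, and their GC contents were 71.1% and 71.9%.
GATA3 region 5, chr10:63389940-63390060, minus strand: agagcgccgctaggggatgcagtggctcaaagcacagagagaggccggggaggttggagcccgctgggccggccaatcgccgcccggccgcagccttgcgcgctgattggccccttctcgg
GATA5 region 4, chr17:61835141-61835261, minus strand: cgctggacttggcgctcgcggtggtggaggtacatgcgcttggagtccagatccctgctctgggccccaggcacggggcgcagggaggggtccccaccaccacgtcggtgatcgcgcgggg
The window from an intron of GATA4 is the stretch with the most GATA sequences in region 13, which was open in liver. It holds 6 of them at a GC content of 34.8%. Peaks of newborn and adult liver covered this window, and those of suckling liver did not.
GATA4 region 13, chr14:14898117-14898317, plus strand: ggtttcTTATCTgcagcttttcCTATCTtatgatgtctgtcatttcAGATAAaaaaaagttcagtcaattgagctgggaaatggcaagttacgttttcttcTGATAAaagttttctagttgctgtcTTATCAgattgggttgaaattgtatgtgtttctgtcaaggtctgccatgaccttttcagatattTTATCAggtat

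The loci differed widely in how many peaks they held. GATA4, on chr14:14858470-14938156 (plus strand), had 86 peaks over the 8 lists in 27 regions, and GATA6, on chr6:107282709-107314725 (plus strand), had 70 peaks in 20 regions. GATA2, on chr13:71981139-71997626 (plus strand), had 39 peaks in 7 regions. GATA3, on chr10:63367684-63397977 (minus strand), had 23 peaks in 8 regions. GATA5, on chr17:61824891-61834742 (minus strand), had 12 peaks in 9 regions, and GATA1, on chrX:42898431-42905939 (plus strand), had 8 peaks in 5 regions. Of the 76 regions, 27 lay in introns, 22 in promoters, 11 in the upstream and 9 in the downstream flanks, and 7 in exons. Regions found in a single list made up 29 of the 76 (38.2%, against 48.4% of all regions of the series), and 5 were found in all 8 lists (6.58%, against 6.55%).

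**Figure D1:**
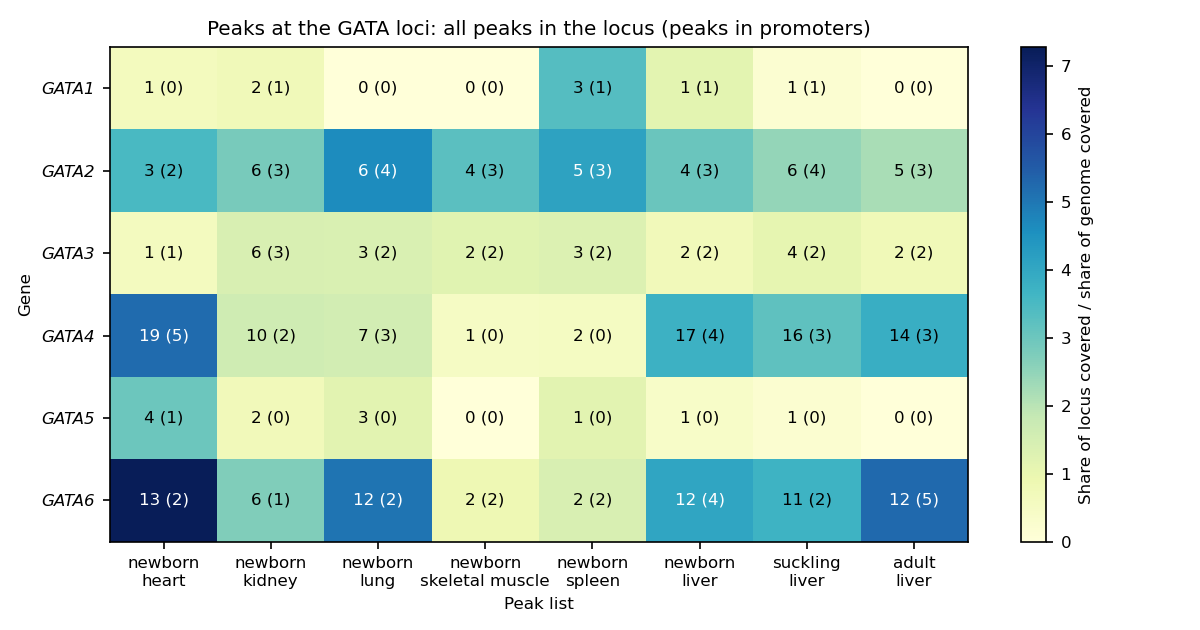
Peaks at the 6 GATA loci (rows) in each of the 8 peak lists (columns), with the number of peaks in the locus and, in parentheses, the number in its promoters. The colour is the share of the locus covered by peaks divided by the share of the genome covered, which is highest for GATA6 in heart (7.28), followed by GATA6 in adult liver (5.25), GATA4 in heart (5.21) and GATA6 in lung (5.03).

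A promoter peak was called for 5 of the 6 members in heart, kidney, newborn liver and suckling liver, for 4 in lung, spleen and adult liver, and for 3 in muscle. Among all PCGs a promoter peak was called for 68.0% in heart, 75.2% in kidney, 70.6% in lung, 61.5% in muscle, 68.9% in spleen, 73.7% in newborn liver, 75% in suckling liver and 69.8% in adult liver, so the family's counts lay within 1 gene of the background. The promoters of GATA2, GATA3 and GATA6 were called in all 6 newborn tissues and in all 8 lists. All PCGs gave 57.7% in the newborn tissues and 56.8% in the 8 lists. The promoter of GATA4 was called in 6 lists, that of GATA1 in 4 and that of GATA5 in 1. A peak of 1 newborn tissue that overlapped no peak of the other 5 was called at 3 members in heart, 5 in kidney, 3 in lung, 0 in muscle, 1 in spleen and 4 in newborn liver. The shares of all PCGs with such a peak were 23.9%, 54.9%, 32.6%, 25.2%, 38.3% and 53.9%.

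**Figure D2:**
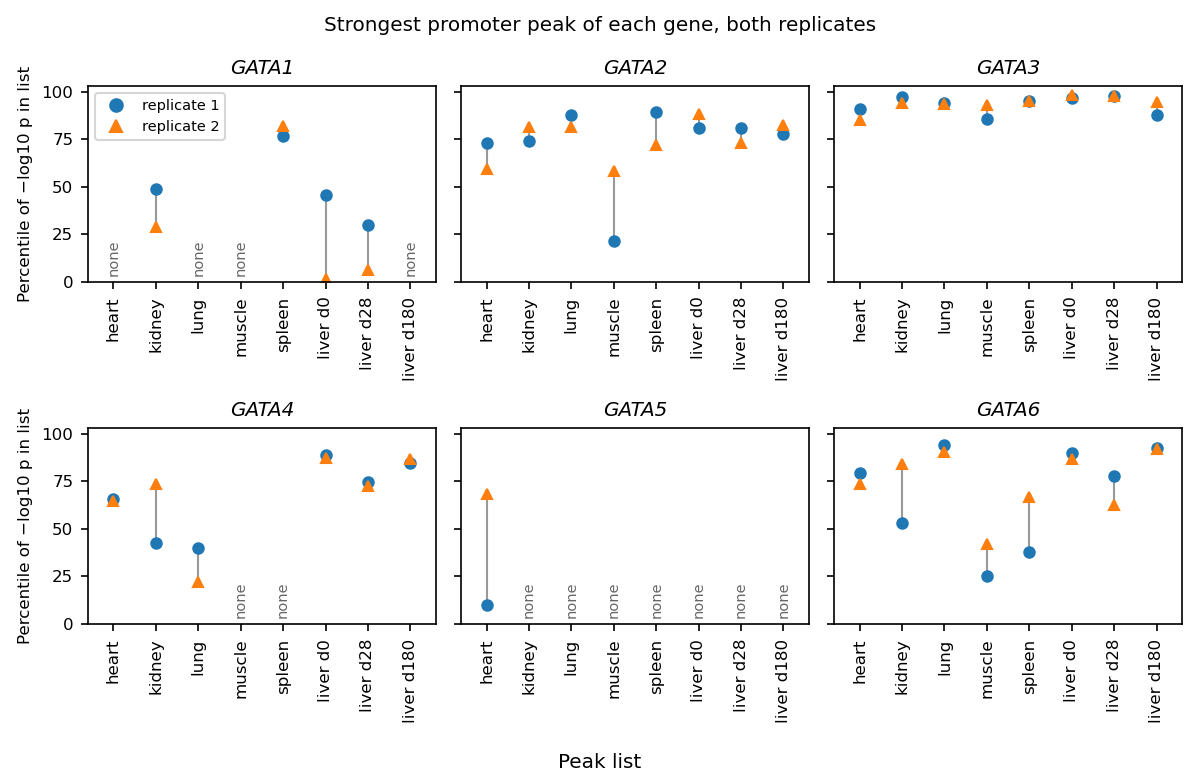
Strength of the strongest promoter peak of each member in each list, as the percentile of its −log10 p among all peaks of that list, for replicate 1 (circles) and replicate 2 (triangles). GATA3 lies high in every list, GATA5 has a peak in heart alone, and the GATA1 replicates lie close together in spleen (76.5 and 81.9) and apart in newborn liver (45.5 and 1.35).

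GATA1, the master regulator of red cell maturation, was marked most strongly in spleen. Its spleen list held 3 peaks, which covered 6.38% of the locus (percentile 71.3 among all PCG loci). Region 2, 3.9 kb upstream of the TSS (chrX:42894304-42894762), was called in spleen and in no other list, with −log10 p of 24.2 and 77.7 in replicates 1 and 2 (IDR 0.00928, percentile 83.7 of the spleen peaks by the smaller value). This is the region with the E-box and GATA composite printed above. Region 4, over the promoter, had 19.1 and 46.1 in spleen (IDR 0.013). Both spleen peaks were above the median of their list in both replicates.

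Region 4 of GATA1 was also called in newborn liver, an organ that makes red cells before birth, with a summit 5 bp from that in spleen. Its −log10 p there was 20.4 in replicate 1 and 3.47 in replicate 2, which put it at percentile 3.48 of the list with an IDR of 0.607. Thus the newborn liver replicates disagreed on this peak. Kidney had a weak promoter peak in region 3 (8.03 and 6.38), suckling liver another in the same region (5.63 and 4.14), and heart a peak 8.7 kb downstream of the TSS (4.21 and 11.5). No peak was called at the locus in lung, muscle or adult liver. With the 57126 strongest peaks of every list, 2 peaks of GATA1 were left in spleen and 0 in the other 7 lists. An lncRNA, LOC110257658, crosses this locus, and the assay cannot assign open chromatin to either gene.

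Markers of red cells went with the GATA1 peaks in spleen but did not follow their order in the other lists. The strongest GATA1 peak stood at percentile 44.9 in kidney, 15.2 in suckling liver, 10.8 in heart and 3.48 in newborn liver. Of 10 erythroid markers, 9 had a promoter peak in spleen, 8 in newborn liver, 4 in suckling liver and 2 in adult liver, with 3 in heart, 2 in kidney, 2 in lung and 1 in muscle. Their part in the GATA1 peaks was not tested. Among 11 annotated blood genes known as targets of GATA1 and GATA2, 7 had a promoter peak in spleen and 8 in newborn liver, then 5 in suckling and 3 in adult liver, against 2 in heart and 1 in muscle. KLF1, an erythroid activator, was called in spleen alone and GFI1B, a repressor needed for red cells and platelets, in newborn liver alone. The platelet integrin gene ITGA2B was called in suckling liver alone, and HEMGN in none.

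GATA2, the factor of blood progenitors and endothelium, was open in every list at 2 promoter regions. Region 1 lies at the 5′-most TSS and region 4 at a pair of start sites within the gene. By the strongest peak of each list, the values of region 1 ran from 6.39 and 4.47 in muscle (percentile 11.8) to 111.7 and 32.0 in newborn liver (89.3). Suckling liver had another peak in region 1 on which its replicates disagreed (34.5 and 3.21, percentile 1.1). In spleen the −log10 p of region 4 was 44.5 and 30.6 (percentile 87.1), in lung 20.6 and 63.5 (88.4), in heart 17.3 and 12.3 (73.6) and in newborn liver 71.6 and 15.3 (74.3). In muscle it was 5.58 and 17.8 (27.9) and in kidney 4.86 and 34.8 (24.7), so these lists had the lowest percentiles, with replicate 1 the weaker in both. Muscle was also the list in which the fewest of the annotated endothelial markers had a promoter peak. It had 5 of 9, against 9 of 9 in the other 7 lists. Among all PCGs, too, muscle had the lowest share, at 61.5%. The part of endothelium in the GATA2 values was not tested. Regions 3 to 5 overlap the promoter of the lncRNA LOC102160340 as well.

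Region 6 of GATA2 lies in an intron, 4.5 kb from the nearest TSS (chr13:71993659-71994096), and carries the other blood-type composite printed above. It was called in kidney, lung, muscle, spleen, suckling liver and adult liver, and not in heart or newborn liver. The peaks were weak to moderate. Their −log10 p was 6.5 and 6.78 in kidney, 7.07 and 9.7 in lung, 6.65 and 4.92 in muscle, and 4.53 and 10.9 in spleen. In liver it was 5.16 and 3.56 at the suckling stage and 16.4 and 14.2 in the adult. None had an IDR of 0.05 or lower, and their percentiles ran from 5.37 in suckling liver to 61.6 in lung. Region 7, over an exon at the 3′ side, was called in every list but muscle, with the highest percentile in suckling liver (23.4 and 37.6, percentile 86.9).

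**Figure D3:**
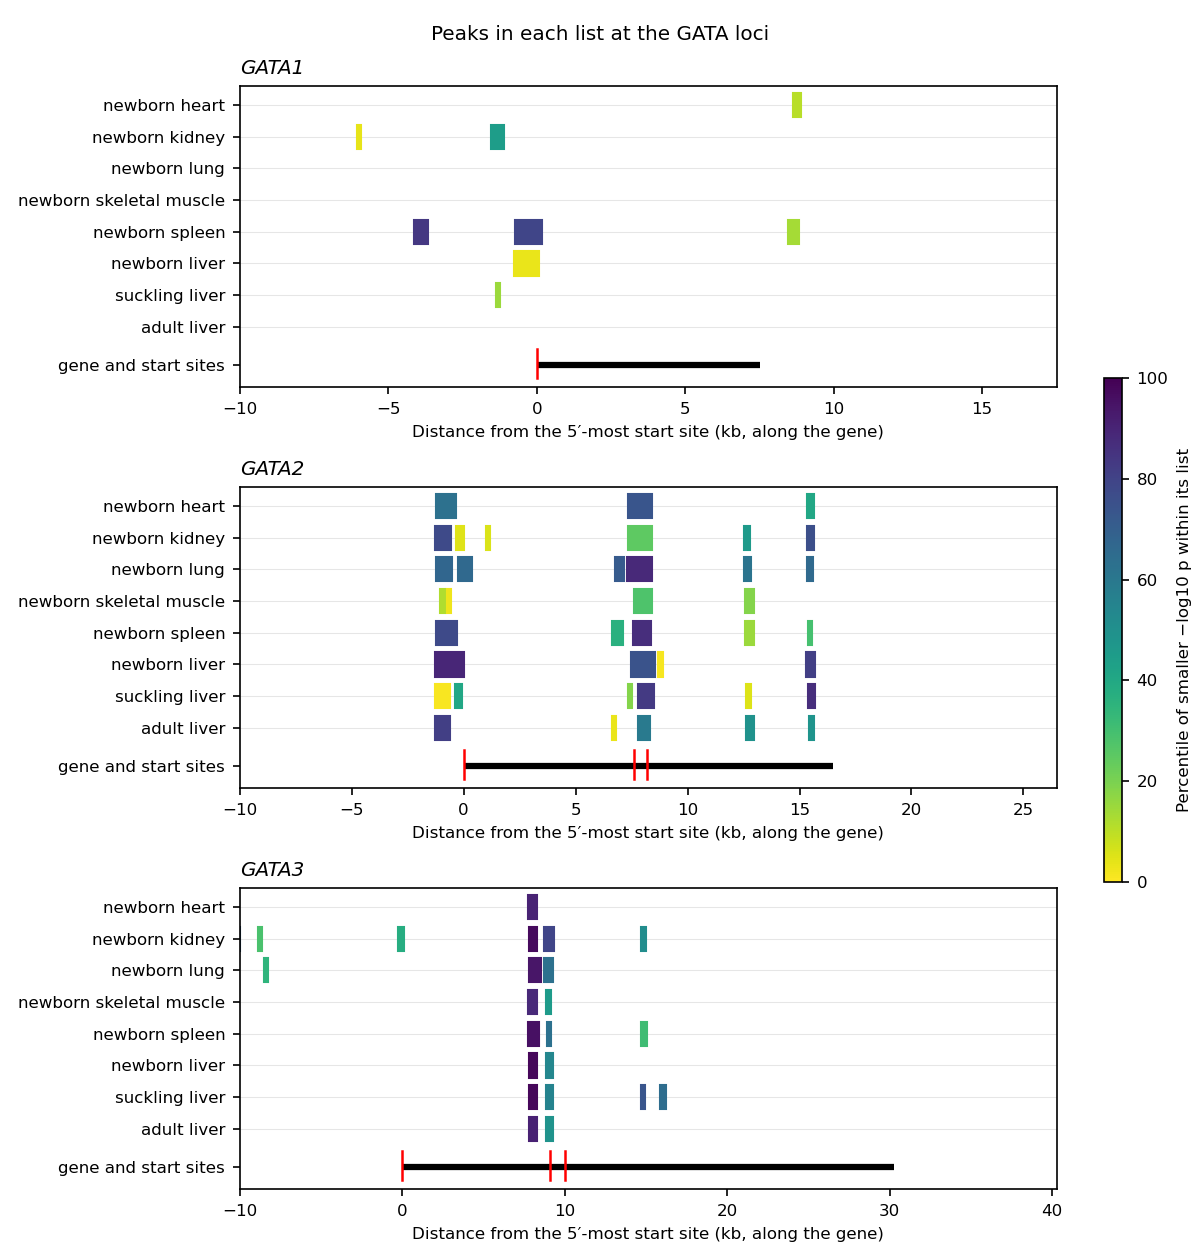
Peaks at GATA1, GATA2 and GATA3 by list, plotted against the distance from the 5′-most start site in kb along the gene, with the colour giving the percentile of the smaller −log10 p in its list. Black bars are the genes and red ticks their start sites, and very narrow peaks are drawn at a minimum width. GATA1 has its strongest peaks in spleen, whereas GATA2 and GATA3 have promoter peaks in every list.

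GATA3, the factor of T cells and of the nephric duct, carried the most uniform of the strong promoter peaks. Region 5 (chr10:63389424-63390217) lies 0.9 kb upstream of a TSS within the gene and was called in all 8 lists at an IDR of 0.05 or lower. Its −log10 p was 40.1 and 29.7 in heart, 57.3 and 57.6 in kidney, 40.4 and 144.1 in lung, and 40.2 and 72.9 in muscle. It was 98.6 and 171.5 in spleen, 311.6 and 84 in newborn liver, 70.6 and 105.1 in suckling liver, and 140.4 and 210.0 in adult liver. Within its own list the peak stood between percentile 88.6 (muscle) and 98.3 (newborn liver). The neighbouring promoter region 6 was called in every list but heart, from percentile 45.7 in muscle to 79.4 in kidney.

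Kidney had the most peaks at GATA3, and its list was the longest of the newborn tissues. It had 6, against 4 in suckling liver, 3 in lung and spleen, 2 in muscle, newborn liver and adult liver, and 1 in heart. With equal numbers of top peaks, kidney, lung and suckling liver had 3 each, so the excess in kidney was lost. Region 4, at the 5′-most TSS (chr10:63397880-63398233), was called in kidney alone (5.71 and 14.1, IDR 0.383). The kidney peak of region 1, which reaches into the locus at its 5′ edge, stood at percentile 67.8 (IDR 0.0415). Region 1 was called in 5 lists. Its peaks in lung, spleen, newborn liver and suckling liver ended outside the locus, so they are not in the counts. Of 9 annotated genes of the nephric duct, in which GATA3 is required, all 9 had a promoter peak in kidney (75.2% of all PCGs did). The counts were 6 in newborn liver, 5 in adult liver, 4 in lung and suckling liver, 3 in muscle, 2 in heart and 1 in spleen. The duct regulators PAX2 and LHX1 were called in kidney alone, while EMX2 and WNT9B were each called in 3 lists.

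The intronic region 7 of GATA3 was called in kidney (7.09 and 8.6), spleen (5.64 and 7.05) and suckling liver (12.7 and 14.5, IDR 0.0291). Suckling liver also had the neighbouring region 8 (9.36 and 11.9), which no other list had. T cell markers moved with these lists in part: promoter peaks were called at 8 of 8 annotated markers in spleen and suckling liver, 7 in adult liver, 3 in newborn liver and 1 in kidney, and their part in these peaks was not tested. Among 12 known T cell targets of GATA3, 9 had a promoter peak in spleen and in suckling liver, 7 in heart and kidney, 6 in lung and adult liver, 5 in newborn liver and 4 in muscle. CCR4, a chemokine receptor of helper T cells, was called in kidney and spleen, and the cytokine genes IL4 and IL5 in no list.

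GATA4, which drives heart muscle and endoderm genes, had peaks spread along its locus in heart and liver, with fewer in the other tissues. Heart had 19 peaks, newborn liver 17, suckling liver 16 and adult liver 14, against 10 in kidney and 7 in lung. Peaks covered 9.19% of the locus in heart (percentile 90.9 among PCG loci), 9.77% in newborn liver (82.5), 8.56% in suckling liver (76.6) and 9.34% in adult liver (80.9). In kidney the covered share was 4.40% (44.8) and in lung 3.13% (41.5). In muscle and spleen the 1 and 2 peaks lay at the promoter of the neighbour NEIL2, downstream of GATA4, so no peak was left to GATA4 itself in these tissues. Without peaks at other genes' promoters the counts were 17 in heart, 15, 14 and 12 in the livers by age, 8 in kidney and 6 in lung. With equal numbers of top peaks, those at NEIL2 included, heart kept 15 peaks and newborn, suckling and adult liver 9, 10 and 7, while lung kept 6 and kidney 2.

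Most GATA4 peaks of heart had an IDR above 0.05, as did most peaks of the heart list. An IDR of 0.05 or lower was found for 3 of 19, against 19.9% of all heart peaks. They were region 27 at NEIL2, region 20 in an intron (20.3 and 25.0) and region 25 in an exon at the 3′ end (23.7 and 18.6). By the smaller −log10 p, 8 of the 19 lay above the median of the list. Region 25 was called in no other newborn tissue. Region 1, over the 5′-most TSS, had 13.9 in both replicates in heart (percentile 76.9) and 3.25 and 8.19 in newborn liver (percentile 0.968), and was called in no other list. Regions 4, 5, 8, 15 and 22 were found in heart alone. Together with region 4 of GATA5 and region 8 of GATA6 they made 7 heart-only regions among the 76 of the family (9.21%, against 3.92% of all regions of the series).

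The liver peaks of GATA4 overlapped those of heart in part. Of 19 heart regions and 16 newborn liver regions, 11 were shared, which is 57.9% of the former and 68.8% of the latter. The same shares over all regions of the series were not taken, so these values describe GATA4 without a background. Regions 13, 16 and 19, all in introns, were called at the 3 liver ages and in no other tissue. These were the family's only regions of that pattern (3 of 76, 3.95%, against 4.66% of all regions). Region 13 (chr14:14897140-14898553), 9.2 kb downstream of the nearest TSS, had −log10 p of 175.7 and 13.3 in newborn liver (IDR 0.0556). In suckling liver it was split into a peak of 23.1 and 36.3 and another of 14.8 and 21.9, and in adult liver it had 180.8 and 126.8 (IDR 0.00391). It held 9 GATA sequences in 1414 bp, 6 of them in the window printed above, at a GC content of 41.7%. That window lay within the newborn and adult peaks but outside both suckling peaks. Region 16 had 47.4 and 23.7 in newborn, 28.8 and 43.9 in suckling and 31.1 and 60.2 in adult liver, and neither region 16 nor region 19 held any of the 4 GATA sequences.

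The broad promoter region 9 of GATA4 (chr14:14883571-14885563) covers a pair of close start sites. It was strong in newborn liver (178.3 and 30.2, percentile 88.5) and adult liver (114.9 and 128.1, percentile 87.9). In suckling liver it had 8.17 and 24.6 (59.5), in kidney 7.28 and 19.1 (52.3), in heart 7.67 and 5.82 (36.6) and in lung 5.39 and 8.43 (44.1). By percentile, region 9 was the strongest GATA4 promoter peak of newborn and adult liver, region 7 that of suckling liver (14.4 and 22.0, percentile 77.0) and region 1 that of heart. Region 21, in an intron 37.4 kb from the nearest TSS, was called in the 6 lists other than muscle and spleen, between percentile 69.6 in heart and 85.8 in adult liver.

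**Figure D4:**
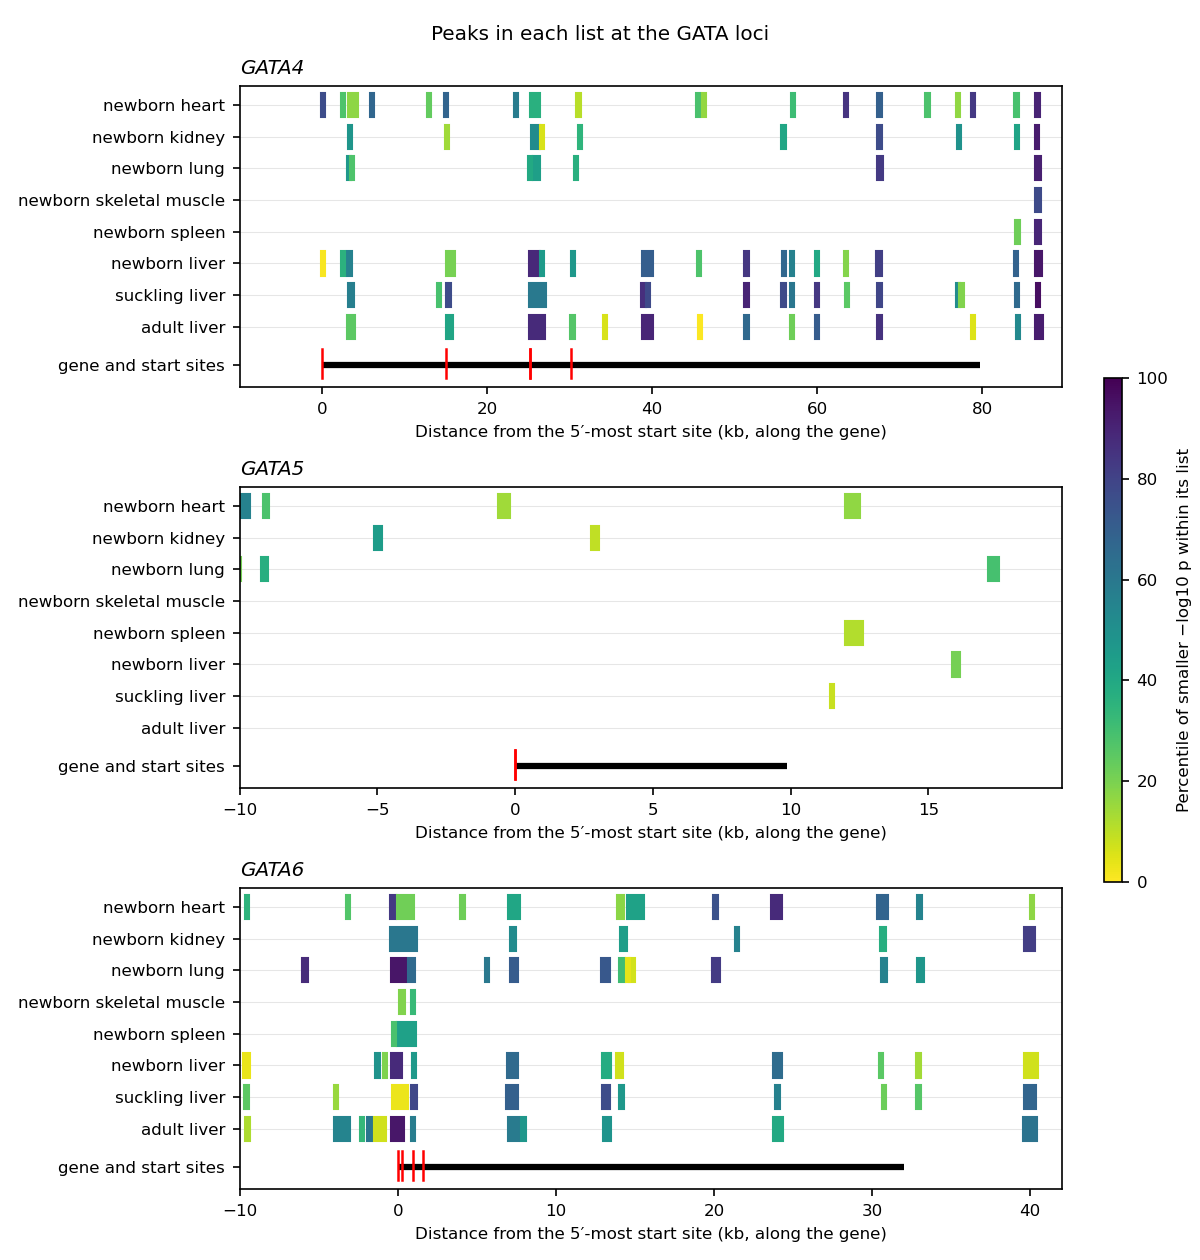
Peaks at GATA4, GATA5 and GATA6 by list, plotted against the distance from the 5′-most start site in kb along the gene, with colours, bars and ticks as in the map of GATA1 to GATA3. GATA4 and GATA6 have series of peaks in heart and the 3 livers, GATA6 also in lung, and GATA5 has scattered weak peaks.

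GATA5, a factor of the endocardium and gut, had the weakest signal of the family. No peak at its locus had an IDR of 0.05 or lower in any list, and none was called in muscle or adult liver. The only promoter peak, region 4 (chr17:61834933-61835382), was called in heart, with −log10 p of 4.39 and 15.5 (percentile 14.4, IDR 0.492). Of the other heart peaks, region 1 at the 5′ edge had 7.87 and 21.6 (percentile 56.0), and lung shared this region (4.33 and 12.9) and region 2. The promoter of GATA5 was among the richest in GC, at 82.7% from 250 bases upstream to 50 downstream of the 5′-most TSS (percentile 97.9 of all promoters, whose median was 60.1%). Its weak peaks stood beside this composition, whose part was not tested.

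GATA6, which acts in heart, lung and liver, was covered most in heart and adult liver. In heart, 13 peaks took 12.8% of the locus (percentile 97.9 among PCG loci). Adult liver had 12.8% (93.0), newborn liver 10.6% (86.3), lung 10.2% (90.6), suckling liver 9.89% (84.0) and kidney 7.35% (71.9). In muscle and spleen the 2 peaks of each lay in region 7, over the start sites, which is also the promoter of LOC100525229. With equal numbers of top peaks, heart and lung kept 10 peaks each and adult, suckling and newborn liver 7, 4 and 3, while kidney and muscle kept 2 and spleen 1. At an IDR of 0.05 or lower the order differed. Adult liver then kept 6 peaks, lung 3, heart and suckling liver 2 each, and newborn liver and kidney 1 each. The lists themselves differed in the share of all their peaks at that level. It was 50.4% in adult liver, 20.5% in lung, 19.9% in heart, 33.8% in suckling liver, 19.2% in newborn liver and 33.9% in kidney. The changed order is therefore not particular to GATA6.

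The promoter region 7 of GATA6 (chr6:107282203-107283936) was called in all 8 lists. The strongest peak there had −log10 p of 39.7 and 109.6 in lung (percentile 94.2), 189.2 and 171.8 in adult liver (93.8), 187.7 and 29.4 in newborn liver (88.1) and 21.7 and 18.5 in heart (83.3). It was weaker in suckling liver (16.4 and 15.7, percentile 78.9), kidney (8.6 and 29.4, 60.5), spleen (6.83 and 25.4, 43.3) and muscle (5.91 and 11.6, 32.5). The suckling and muscle values are from a separate peak in the downstream part of the region. Near the first start, the suckling peak had 3.45 and 9.44 (percentile 2.93) and the muscle peak 4.95 and 9.29 (18.9). Lung had 2 regions that no other list had, region 2 at 5.9 kb upstream (19.1 and 70.5, IDR 0.0083) and the intronic region 9. Region 17, in an intron, was the strongest heart peak of GATA6 (45.6 and 24.5, percentile 87.9). It was shared with the 3 livers (23.2 and 11.2 in newborn, 7.62 and 12.4 in suckling, 14.6 and 10.3 in adult) and with no other tissue.

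Regions shared by heart and the 3 livers and by no other tissue were 3 in the family: region 18 of GATA4 and regions 1 and 17 of GATA6. They were 3 of 76 regions (3.95%, against 0.252% of all regions). The heart peaks of GATA4 region 18 (5.4 and 6.01) and GATA6 region 1 (5.7 and 6.34) each had an IDR of 0.686. In region 18 the heart summit lay outside the liver peaks. No liver peak of the 3 regions had an IDR of 0.05 or lower. Region 10 of GATA6, around an exon, was called in 6 lists, but the composite printed above was covered only by the peaks of heart (6.36 and 6.08), newborn liver (56.0 and 11.5), suckling liver (11.3 and 11.0) and adult liver (21.6 and 31.1). The kidney and lung peaks of this region lay 3′ of it. Adult liver had 3 GATA6 regions that no other list had, regions 4, 5 and 11, of which region 5, 1.8 kb upstream, had 45.4 and 23.5.

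Known heart and endoderm genes followed the tissue labels only in part. Of 11 annotated cardiac targets of GATA4, GATA5 and GATA6, 10 had a promoter peak in heart, 9 in kidney, 8 in lung, muscle and suckling liver, and 6 in spleen, newborn liver and adult liver. NPPA, a cardiac hormone gene, and MYL7, an atrial myosin light chain, were called in heart alone, whereas the ventricular myosin gene MYH7 was called in muscle and kidney. Of 10 liver and endoderm genes, 9, 10 and 10 had a promoter peak at the newborn, suckling and adult liver stages, against 8 in kidney, 6 in heart, lung and spleen, and 3 in muscle. The counts of kidney, heart, lung and spleen lay near the shares over all PCGs. ALB was called in suckling and adult liver. Of 8 annotated genes of the liver sinusoid, whose endothelium depends on GATA4, 7, 6 and 7 were called in the livers and 0 in muscle, with STAB2 in none.

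Partner proteins of the family showed less contrast. Of 12 partners, 11 had a promoter peak in heart, 10 in spleen, 9 in kidney, lung and each liver, and 7 in muscle. Over all PCGs the share was 68.0% in heart, 68.9% in spleen and 61.5% in muscle. In the remaining lists it ran from 69.8% (adult liver) to 75.2% (kidney). TBX5, a cardiac partner, was called in 5 lists and HAND2 in heart, spleen and adult liver. NKX2-5 was called in heart and spleen, and the GATA4 cofactor ZFPM2 had no promoter peak in any list.

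To ask whether the strength of shared regions differed between tissues beyond the spread of replicates, the −log10 p of each library was ranked over the regions called in all 6 newborn lists (20089 regions, 12 libraries) or in all 3 liver lists (67952 regions, 6 libraries). The ranks were turned into normal scores, on which 0 is the median region of a library and 1 is 1 SD above it, and were compared with limma. The GATA loci held 5 of these regions for the newborn tissues and 22 for the livers. None was called at an adjusted p of 0.05 in any of the 9 contrasts. Over all regions, the share called in either direction was 0.0348% for heart, 0.0299% for kidney, 0.0299% for lung, 0.274% for muscle, 0.0747% for spleen and 0.0796% for newborn liver, each against the other 5 tissues. It was 0.00% for suckling against newborn, for adult against suckling and for adult against newborn liver. At an unadjusted p under 0.05, the GATA regions gave 4 of 30 tests in the newborn tissues and 6 of 66 in the livers. Over all common regions 11.9% and 10.4% of the tests passed that level, so the GATA regions lay near the background.

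The lowest unadjusted p among the newborn contrasts belonged to region 7 of GATA6 in lung. Its −log10 p stood at percentiles 77.3 and 66.0 of the common regions in the lung replicates. The next were newborn liver (64.1 and 53.0) and heart (59.9 and 45.5), and muscle (17.6 and 24.2), spleen (18.4 and 32.3) and kidney (12.5 and 38.2) followed. Both lung libraries thus lay above all 10 others. The lung score exceeded the mean of the other tissues by 0.97 (SE 0.28, limma adjusted p = 0.392). Region 1 of GATA2 had a higher score in newborn liver than elsewhere by 0.74 (SE 0.26, limma adjusted p = 0.405).

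The largest difference between liver ages was at the first start site of GATA6, in the 5′ part of region 7. Its −log10 p stood at percentiles 82.8 and 78.1 of the common regions in newborn liver, 0.558 and 14.9 in suckling liver, and 88.7 and 87.2 in adult liver. The suckling libraries did not overlap with those of the other ages. The score was lower in suckling than in newborn liver (difference −2.65, SE 0.52, limma adjusted p = 0.538) and 2.96 higher in adult than in suckling liver (SE 0.52, adjusted p = 0.325). The downstream part of region 7 showed no such dip, with means of −0.76, −0.13 and −0.22 at the 3 ages.

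Region 9 of GATA4 took a like course, with percentiles of 81.4 and 78.9 in newborn, 26.6 and 53.5 in suckling and 76.4 and 79.4 in adult liver, and adult exceeded suckling liver by 1.04 (SE 0.34, limma adjusted p = 0.325). The liver-only region 19 of GATA4 stood at 5.76 and 33.4 in newborn, 65.1 and 69.2 in suckling and 55.6 and 72.8 in adult liver, and suckling exceeded newborn liver by 1.45 (SE 0.46, limma adjusted p = 0.627). None of these differences passed the adjustment, and a p above the threshold does not show that the ages are alike.

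**Figure D5:**
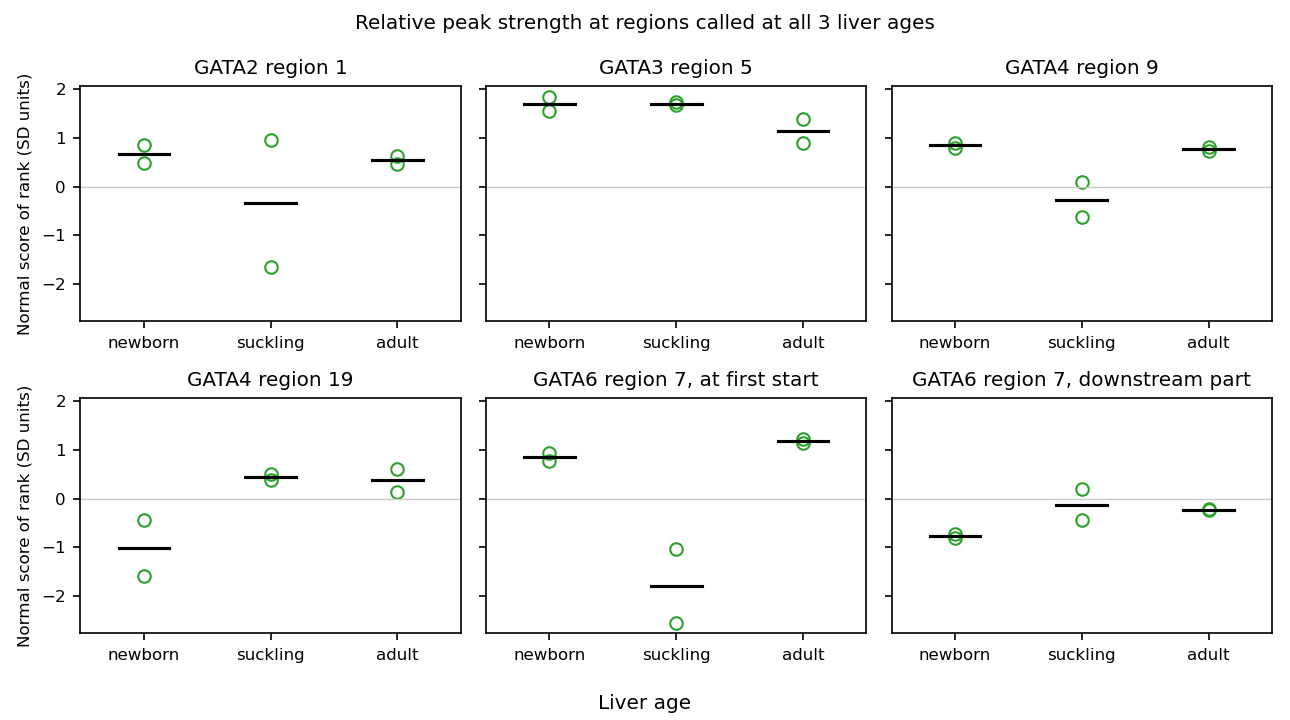
Normal scores of the rank of −log10 p among regions common to the 3 liver lists, for 6 regions of the GATA loci by age, with a circle per library (2 per age) and a bar at their mean. The suckling libraries lie lowest at GATA4 region 9 and at the first start of GATA6 region 7, and the newborn libraries lie lowest at GATA4 region 19.

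GATA sequences were less common in peaks at the GATA loci than in other peaks in 6 of 8 lists, by shares that mostly lay within counting error. Within 150 bp of the summit, such a sequence was found in 19.5% of 41 member peaks in heart (Wilson 95% interval 10.2 to 34.0, counting error only), against 33.1% of other heart peaks. The shares were 9.38% against 25.7% in kidney, 22.6% against 28.1% in lung, 33.3% against 24.2% in muscle, 31.2% against 29.4% in spleen, and 21.6% against 32.9%, 23.1% against 29.3% and 27.3% against 35.5% in newborn, suckling and adult liver. The shares outside the GATA loci lay within the intervals of the member shares in all lists but kidney (3.24 to 24.2). Kidney was no exception within 75 bp of the summit (6.25%, interval 1.73 to 20.1, against 12.4%) or at an IDR of 0.05 or lower (12.5%, interval 2.24 to 47.1, against 22.6%). Over whole regions, 29 of 76 (38.2%) held a GATA sequence, against 46.7% of all regions. They were unevenly spread, with 9 in region 1 of GATA2 and 9 in region 13 of GATA4, and 0 in all 8 regions of GATA3.

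Likeness between loci was described by Pearson's r of the log2 ratio between the covered share of a locus and that of the genome, plus 0.5, over the 8 lists, which share libraries and list sizes. GATA4 and GATA6 were most alike within the family (r = 0.898), and GATA3 and GATA4 least (r = −0.804). Among all PCGs the closest to GATA4 were CORIN (0.985), OPA3 (0.985) and CDKAL1 (0.980), and to GATA6 DSP (0.974), SMPD5 (0.965) and FGF7 (0.963). GATA1 was closest to TNFAIP8 (0.975), PLA2G5 (0.974) and LOC110255846 (0.962). For GATA2 they were VSIG2 (0.986), SERPINI1 (0.971) and PIGM (0.970), and those of GATA3 included KIAA0753 (0.936) and SHANK3 (0.923). Those of GATA5 included LOC110255686 (0.975) and GPR27 (0.973). With 8 points and 19560 genes, such values are a description of pattern only.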

How the data were processed

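Female pigs gave 16 ATAC-seq libraries in 8 groups of 2, grouped by their labels. According to the study's methods, the authors aligned reads to Sscrofa11.1 with Bowtie2, used SAMtools (version 1.3.1 in the submitters' processing notes) to filter out duplicates, poor alignments and mitochondrial reads, called peaks per replicate with MACS2 and matched replicates with the IDR tool. The stated MACS2 options combine a shift and extension of reads, as used to centre on transposase cuts, with a paired fragment format, so where summits lie relative to the cuts cannot be told here. No removal of artefact-prone regions is described. The deposited lists hold, for each peak, the −log10 p of both replicates, the smaller of them and a score, the scaled IDR (540 stands for 0.05). Such values grow with depth, which the lists do not give, so strength was given as a percentile within a list or as a rank.

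Peaks were assigned by an overlap of 1 bp (pandas 2.3.3, pysam 0.24.0), and positions are counted from 1. Of 167 entries in 16 gene lists written for partners, targets and cell type markers, 158 matched an annotated gene (some genes stand in several lists). The members, the lists and the tests were chosen with earlier results of these data known. The text names the 6 members, for each member the 3 genes with the most similar coverage over the lists (some are not reported here), and up to 4 genes per list with promoter peaks in the fewest lists, fewest first. Regions common to a set of lists were compared by limma 3.58.1 in R 4.3.3 with Benjamini-Hochberg adjustment over all common regions of a contrast, after a test on simulated data. The methods call the replicates biological, from 2 full sibs per age, with all newborn tissues from the same 2 pigs. No source used here says that a replicate number marks the same pig across tissues, so p-values rest on sibs and treat tissues as independent. The alternatives were an IDR of 0.05 or lower, equal numbers of top peaks, ranking by either replicate alone, 50% of a peak inside the locus, a 1 kb promoter, no flank or a 50 kb flank, a 75 bp motif window, log2 values, the replicate number as a block, and leaving out each library.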

Additional observations from a re-analysis of the deposited data

How the results depend on the processing

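Counts of peaks depended on the threshold. At an IDR of 0.05 or lower, the peaks in the 6 loci fell to 6 in heart, 8 in kidney, 7 in lung, 2 in muscle, 5 in spleen and 6, 15 and 17 in newborn, suckling and adult liver, and members with a promoter peak to 2 in heart, 2 in kidney and 1 in muscle. Promoter calls over the 8 lists then came to 43 for partners, 10 for blood targets, 20 for T cell targets, 16 for nephric duct, 36 for cardiac, 29 for liver and endoderm and 13 for sinusoid genes. With the 57126 strongest peaks of each list, loci held 9 peaks in kidney, 9 in spleen and 17, 19 and 20 in newborn, suckling and adult liver, 3 members had a promoter peak in kidney, and nephric duct and sinusoid genes had 22 and 24 calls. Ranking these by 1 replicate alone gave 26 to 36 peaks in heart, 9 to 12 in kidney, 17 to 26 in lung, 9 to 11 in spleen, 14 to 15 in newborn, 18 to 22 in suckling and 15 to 17 in adult liver, and 2 to 4 members with a promoter peak in kidney. A 50 kb flank gave 70, 73, 63, 21, 47, 74, 90 and 71 peaks in heart, kidney, lung, muscle, spleen and the 3 livers by age. Fewer peaks or longer loci lie behind these shifts by construction. The muscle share of peaks with a GATA sequence, from 9 peaks, was 0% at the stricter IDR and 11.1% in the 75 bp window.

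No GATA region was called in any of the 117 alternative tests of shared regions, with lowest adjusted p from 0.0643 to 0.998. Counts over all shared regions moved more: without single libraries, muscle gave 0 to 326 calls (55 with all libraries) and adult against newborn liver 0 to 830 (0 with all). The replicate numbers were not taken as pairs. The deviations of same-numbered libraries correlated between −0.109 and 0.190 over 15 newborn pairs, with 3 pairs over 0.1, all among heart, muscle and spleen, and between 0.005 and 0.047 over 3 liver pairs. Whether a number marks the same pig across tissues is not given in the sources used here. With the replicate number as a block, 0 GATA regions were called in each contrast, and the calls over all regions were 1 in muscle and 2, 4, 3, 5 and 6 in heart, kidney, lung, spleen and newborn liver. Depth, for which the lists give no values, limits what an uncalled peak can show.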

Other observations

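The composition of the start sites differed between members. From 250 bases upstream to 50 downstream of a TSS, 4 of 18 promoters of the family held a GATA sequence (20.5% of all 47600 promoters did), namely 3 start sites of GATA4 and 1 of GATA6. GATA1 had the lowest CpG ratio of the family (0.151, percentile 8.69), and the 3′-most start site of GATA4 had the highest (1.21, percentile 99.5).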
